A study of Mus musculus with 7 samples.

Results

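The genes of the actin filament and its turnover were examined in oligodendrocyte lineage cells (OLCs) of the adult mouse neocortex. The list was made by gene symbol and holds 10 of the 27998 genes in the table: the actins Actb and Actg1; the monomer-binding genes Tmsb4x, Tmsb10, Pfn1 and Pfn2; the severing genes Cfl1, Cfl2 and Gsn; and the nucleation gene Arpc2. The list follows gene function and applies no threshold to a measured value, but it was chosen with earlier results of these data known. Together they took 0.887% (control dOLCs), 0.803% (control vOLCs) and 1.01% (ectopic vOLCs) of all UMIs (unique molecular identifiers, each standing for 1 captured RNA molecule).

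Actin monomers add to one end of a filament and leave from the other, and the pool of free monomers is held by thymosins and handed to growing ends by profilins. Cofilins and gelsolin sever filaments, and the Arp2/3 complex starts branches on the side of existing ones. In oligodendrocytes, a branched actin network drives process extension by progenitors and young cells, and its disassembly accompanies the wrapping and spreading of myelin.

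Single-cell RNA sequencing (10x Genomics) was carried out on sorted OLCs from mice at P90 (11-14 weeks) on a mixed C57BL/6-B6CBA background, and the question was whether cells that replace ablated dorsal OLCs differ from the cells they replace and from their own ventral kind. Control dOLCs were the TdTom+ cells, and control vOLCs the GFP+ cells, of Emx1-Cre:Sox10-GFP-TdTom mice, in which Cre recombination switches the reporter from GFP to TdTom. Ectopic vOLCs were the GFP+ cells of ablated mice, which carry Emx1-Cre:Sox10-GFP-tdTom and in addition Sox10-GFP-DTA, an allele that makes diphtheria toxin fragment A (DTA) in Sox10-expressing cells with a history of Emx1-Cre. All groups therefore carry Emx1-Cre and the reporter, "dorsal" means only a history of Emx1-driven Cre, and the ablation of dOLCs was partial by the study's own account. Until it is recombined the DTA allele also makes GFP, so that the GFP+ gate by itself does not show a cell's origin.

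Each condition is 1 library, made from 4 control or 2 ablated mice whose cells cannot be separated in the files. With no replicate library, no test between conditions is possible, and only levels, ratios and their counting intervals are given. The kept cells numbered 5804, 925 and 2562 in the order above, with 4846391 to 23078181 UMIs per library and a median of 3489.5 to 5318.5 UMIs per cell. Libraries shared 6 to 24 cell barcodes pairwise, and doublets were neither called nor removed here. The authors' 11 clusters were used as named, running from oligodendrocyte progenitor cells (OPC) and committed or newly formed cells (COP/NFOL/MFOLa), through myelin-forming cells (MFOLb, whose sums held 2771 and 3427 CPM of astrocyte markers, against 138 to 324 CPM in mature clusters), to mature oligodendrocytes (MOL1, MOL2a, MOL2b and MOL5/6a to MOL5/6d). Summed over 5 OPC markers, levels were 10687 to 13308 CPM (UMIs per 1000000 UMIs of the sum) in OPC and 1888 to 2002 CPM in MOL5/6, and 9 markers of mature cells reached 55246 to 66722 CPM in MOL5/6. Microglial RNA summed to 31.97 to 114.0 CPM in these 2 populations, and Tmem119 had 0 UMIs in both in every library. Of the sex-linked genes, given because Tmsb4x is on the X chromosome, Ddx3y, Uty and Kdm5d had 0 UMIs in both populations of every library, and Eif2s3y had UMIs only in OPC of ectopic vOLCs. Xist, the other gene of that list, had UMIs in both populations of every library. The labels give animals of both sexes. UMIs were summed over the cells of 1 cluster in 1 library, and 27 sums of at least 20 cells were used, which leaves out OPC cycling in every library and COP/NFOL/MFOLa, MFOLb and MOL2b in control vOLCs.

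Of the 10 genes, 9 had at least 1 promoter window (250 bases before to 50 after a transcript start) in RefSeq on GRCm38.p6, with 13 windows in all, and the other was Actb. These were searched for the CArG box, the sequence that serum response factor binds and through which many actin genes respond to the free monomer pool; it reads the same on both strands, so that 1 search covers both. The 13 windows held 1 match, in Actg1, against 535 of all 32851 windows (1.63%). The match began 90 bases before the start and is shown in capitals within 200 bases, chr11:120348546-120348745 on the minus strand, which end 50 bases before the start. No other motif was searched, and a match of letters is not a measured site.
Actg1: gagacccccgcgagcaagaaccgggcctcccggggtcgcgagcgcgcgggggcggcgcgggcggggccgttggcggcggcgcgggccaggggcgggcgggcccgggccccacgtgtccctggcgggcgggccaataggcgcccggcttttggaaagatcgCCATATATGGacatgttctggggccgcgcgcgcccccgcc

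All 10 are protein-coding genes, and positions are those of GENCODE on GRCm38, over the whole gene. Actb (ENSMUSG00000029580.14) lies on chromosome 5 from 142903115 to 142906754 and Actg1 (ENSMUSG00000062825.15) on chromosome 11 from 120345690 to 120348542, both on the minus strand. Of the monomer-binding genes, Tmsb4x (ENSMUSG00000049775.16) lies on chromosome X from 167207093 to 167209315, Tmsb10 on chromosome 6 from 72957347 to 72958748, Pfn1 on chromosome 11 from 70651850 to 70654644 and Pfn2 on chromosome 3 from 57841895 to 57848079, all on the minus strand. Cfl2 is on the minus strand of chromosome 12 from 54858809 to 54862877, while Gsn (chromosome 2, 35256380 to 35307892) and Arpc2 (chromosome 1, 74236084 to 74268209) are on the plus strand. Over all kept cells, UMIs per gene ran from 2057 for Tmsb10 to 122406 for Tmsb4x.

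Counting limits the reading of 4 of the genes. Cfl1 (chromosome 19, 5490455 to 5495201, plus strand, GENCODE on GRCm38) is overlapped by Snx32 on the opposite strand, which had 2294 UMIs against 38480 for Cfl1, and whether counting used strand is not given in the sources used here. Tmsb10 has a near copy, Gm9844, with a transcript 99.0% identical over the matched stretch and 47 UMIs against 2057 for Tmsb10. Look-alike genes absent from the count table number 6 for Actg1 and 1 each for Arpc2 and Cfl1. Transcript lengths of the 10 genes ran from 690 bases in Tmsb10 to 2940.0 bases in Cfl2, and levels are compared below only for the same gene or as a share of a pair.

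Across clusters, the 10 genes did not share 1 profile. The clusters were built by the authors from the expression of the same cells, so that these levels are a description and carry no test. In each case the mean and SD are over the libraries with a sum of at least 20 cells, and the plot of levels by cluster shows every library.

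**Figure D1:**
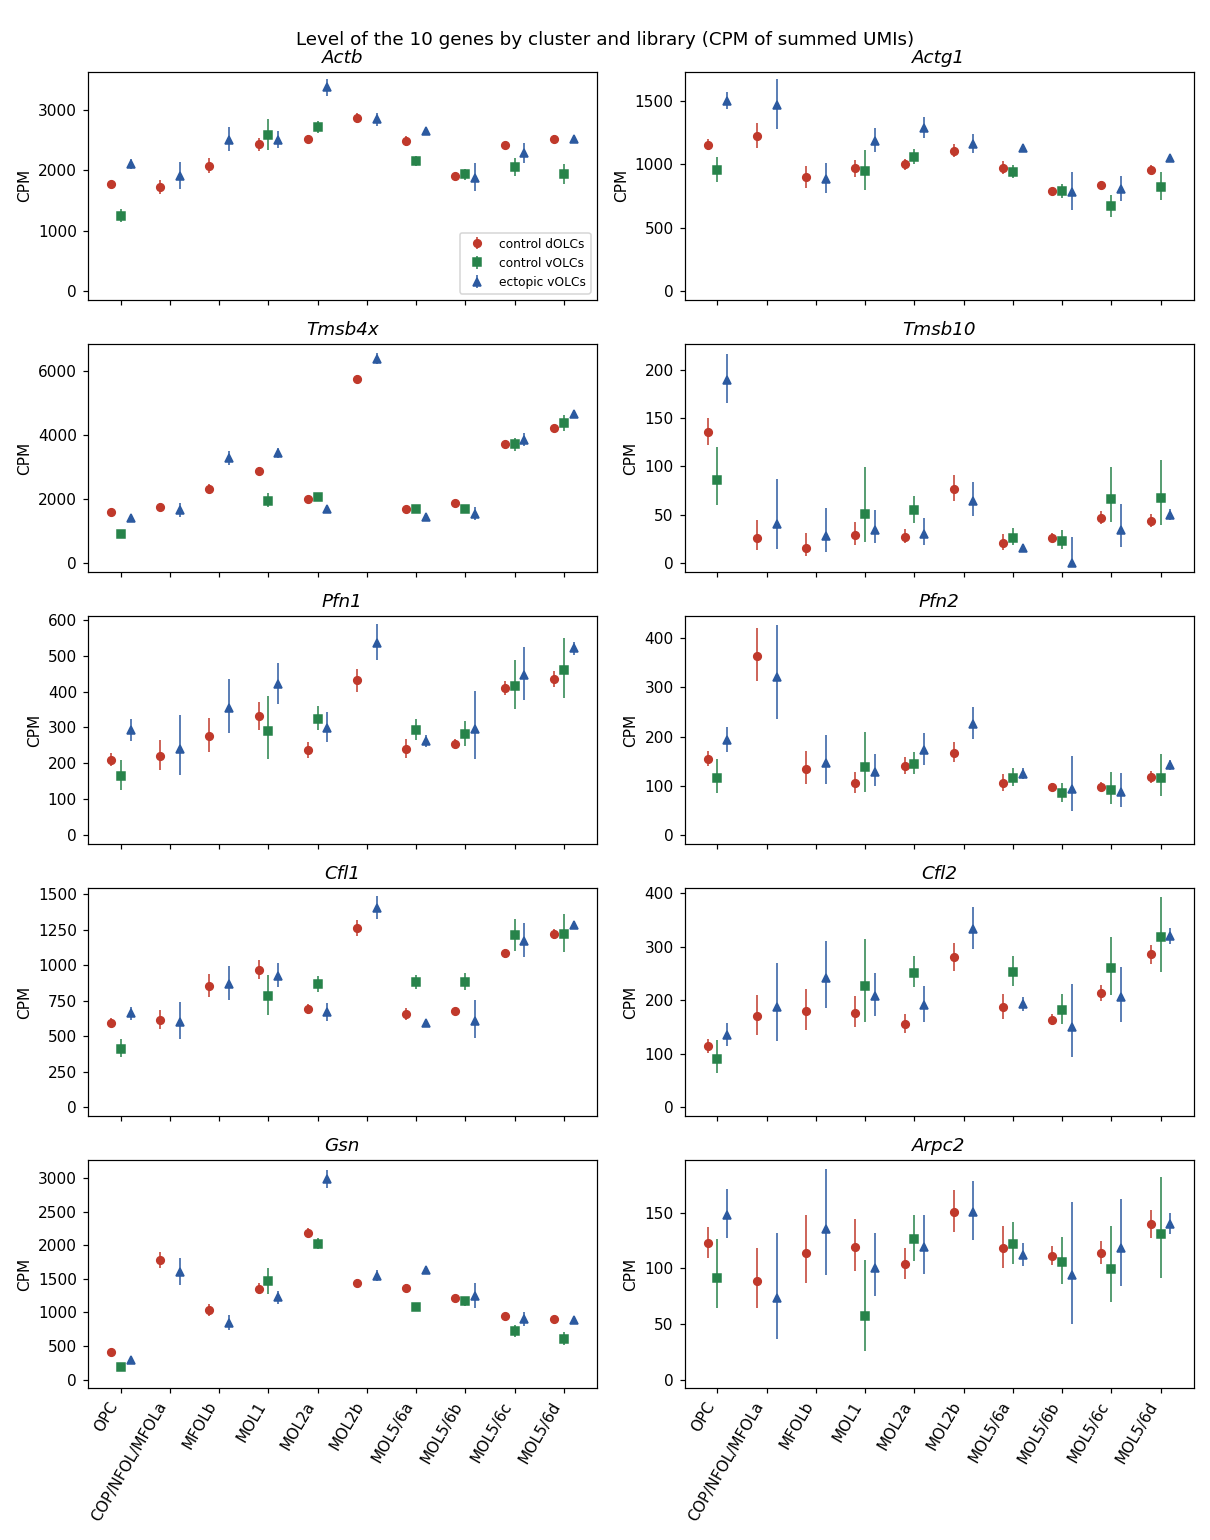
Level of each gene in CPM (y axis, starting just below 0) in 10 clusters (x axis) and 3 libraries (colour and shape); bars are 95% exact Poisson intervals and cover counting error only. Tmsb4x, Pfn1 and Cfl1 stand higher in MOL5/6c, MOL5/6d and MOL2b than in MOL5/6a and MOL5/6b in every library shown, Tmsb10 stands highest in OPC, and Gsn lowest in OPC.

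The actins varied least. Actb, which encodes β-actin, was highest in MOL2a (2870 ± 449 CPM, SD, n = 3 libraries) and lowest in OPC (1708 ± 430 CPM, n = 3), a ratio of 1.68. Its values in OPC were 1767 CPM in control dOLCs, 1251 CPM in control vOLCs and 2105 CPM in ectopic vOLCs, and those in MOL5/6 were 2247, 2050.4 and 2560.1 CPM. Actg1, which encodes the other cytoplasmic actin, γ-actin, was highest in COP/NFOL/MFOLa (1345 ± 171 CPM, n = 2) and OPC (1202 ± 277 CPM, n = 3), with overlapping values, and lowest in MOL5/6c (769 ± 89.4 CPM, n = 3). In CPM the actins were therefore ordered differently: early cells stood at the bottom for Actb and at the top for Actg1.

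Among the monomer-binding genes, Tmsb4x, which encodes thymosin β4, the main holder of free monomers, was at 6067 ± 446 CPM (n = 2) in MOL2b, 4404 ± 218 CPM in MOL5/6d and 3764 ± 80.7 CPM in MOL5/6c (n = 3 each), and the values of these clusters did not overlap. In MOL5/6a it was at 1687 CPM in control dOLCs, 1687 CPM in control vOLCs and 1451 CPM in ectopic vOLCs, and in MOL5/6b at 1884, 1700 and 1534 CPM. The 6 values of MOL5/6a and MOL5/6b thus all lay below the 6 of MOL5/6c and MOL5/6d, whose range was 3706 to 4640.0 CPM. Cell by cell, after thinning each cell to 1000 UMIs, the median cell held 1 to 2 Tmsb4x UMIs in MOL5/6a and MOL5/6b, 3 to 4 in MOL5/6c and 4 to 5 in MOL5/6d, by library.

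Tmsb10, a thymosin of the same family, was instead highest in OPC. It was at 136 CPM in control dOLCs, 86.1 CPM in control vOLCs and 189.7 CPM in ectopic vOLCs in OPC, and at 35.7, 33.9 and 35.6 CPM in MOL5/6. Every OPC value was above every value of the other clusters, of which MOL2b came next at 70.7 ± 8.40 CPM (n = 2). In MOL5/6b of ectopic vOLCs (42 cells, 138892 UMIs) no Tmsb10 UMI was counted, which allows a level of up to 21.6 CPM at 3 counts and 26.6 CPM at the upper end of the exact Poisson interval. Pfn1, the common profilin that feeds monomers to growing filament ends, was highest in MOL2b (483 ± 74.3 CPM, n = 2), MOL5/6d (472 ± 44.3 CPM, n = 3) and MOL5/6c (424 ± 19.4 CPM, n = 3), which overlapped, and lowest in OPC (222 ± 64.5 CPM, n = 3). Pfn2, the profilin best known from neurons, was highest in COP/NFOL/MFOLa, at 363 CPM in control dOLCs and 321 CPM in ectopic vOLCs, with no overlap with any other cluster, and at 92.5 ± 5.73 CPM (n = 3) in MOL5/6c.

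Among the severing genes, Cfl1, the main cofilin, had the profile of Pfn1 and Tmsb4x, from 1335 ± 100.3 CPM (n = 2) in MOL2b and 1244 ± 36.7 CPM in MOL5/6d to 558 ± 130 CPM in OPC (n = 3 each). Cfl2, the muscle-type cofilin, was highest in MOL5/6d (308 ± 19.1 CPM, n = 3) and MOL2b (307 ± 38.2 CPM, n = 2), which overlapped, and lowest in OPC (114 ± 21.8 CPM, n = 3). Gsn, which encodes gelsolin, a calcium-dependent severing and capping protein, spanned 8.24-fold between clusters. It was at 404 CPM in control dOLCs, 185 CPM in control vOLCs and 285 CPM in ectopic vOLCs in OPC, and at 1785 and 1600 CPM in COP/NFOL/MFOLa of control dOLCs and ectopic vOLCs. Its level was highest in MOL2a (2402 ± 514 CPM, n = 3), which overlapped no other cluster, and within MOL5/6 it ran against Tmsb4x, from 1359 ± 278 CPM in MOL5/6a to 795 ± 164 CPM in MOL5/6d. Arpc2, a core subunit of the Arp2/3 complex, was at 150 ± 0.0407 CPM (n = 2) in MOL2b and 81.0 ± 10.3 CPM (n = 2) in COP/NFOL/MFOLa, and most neighbouring clusters in its order overlapped.

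The split between MOL5/6c, MOL5/6d and MOL5/6a, MOL5/6b was put into 1 number per library, the log2 ratio of the summed CPM of the first pair to that of the second. These pairs were chosen from the Tmsb4x levels above, so that the direction for Tmsb4x was set by the choice. Genes with a profile like that of Tmsb4x are not independent of it. Over the 3 libraries it was 1.33 ± 0.30 for Tmsb4x, 1.31 ± 0.43 for Tmsb10, 0.77 ± 0.19 for Pfn1, 0.78 ± 0.33 for Cfl1 and 0.54 ± 0.19 for Cfl2, each above 0 in every library, and -0.68 ± 0.23 for Gsn, below 0 in every library. For Actb (0.060 ± 0.20), Actg1 (-0.083 ± 0.19), Pfn2 (0.082 ± 0.10) and Arpc2 (0.15 ± 0.17), libraries lay on both sides of 0. Ribosomal protein genes moved with this split: they took 6.51% to 7.24% of UMIs in MOL5/6c and MOL5/6d and 3.26% to 3.91% in MOL5/6a and MOL5/6b, and mitochondrial counts took a median of 4.06% to 6.28% against 6.68% to 10.5%. The part of either in the levels of the actin genes was not tested.

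Shares within each pair of related genes do not depend on how a library is scaled. Actg1 held 39.5% of the UMIs of both actins in OPC of control dOLCs (95% Clopper-Pearson interval 38.4 to 40.6), 43.2% in control vOLCs (39.9 to 46.6) and 41.6% in ectopic vOLCs (40.1 to 43.1), and 27.6%, 29.2% and 29.5% in MOL5/6. In COP/NFOL/MFOLa the share was still 41.5% and 43.5%, and from MFOLb on it was 24.6% to 32.1%. The actin pair therefore differed between early and later clusters by more than between libraries.

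Tmsb10 held 7.81%, 8.70% and 11.8% of the thymosin UMIs in OPC of control dOLCs, control vOLCs and ectopic vOLCs, and 1.21%, 1.53% and 1.05% in MOL5/6. Pfn2 held 42.6%, 41.4% and 39.9% of the profilin UMIs in OPC, 62.2% and 57.1% in COP/NFOL/MFOLa of control dOLCs and ectopic vOLCs, and 23.5%, 24.4% and 24.3% in MOL5/6. For both pairs the 3 libraries of a cluster lay close together beside the distance between OPC and MOL5/6. Cfl2 moved little within the cofilin pair, with 16.1% to 18.1% in OPC and 18.5% to 20.9% in MOL5/6.

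**Figure D2:**
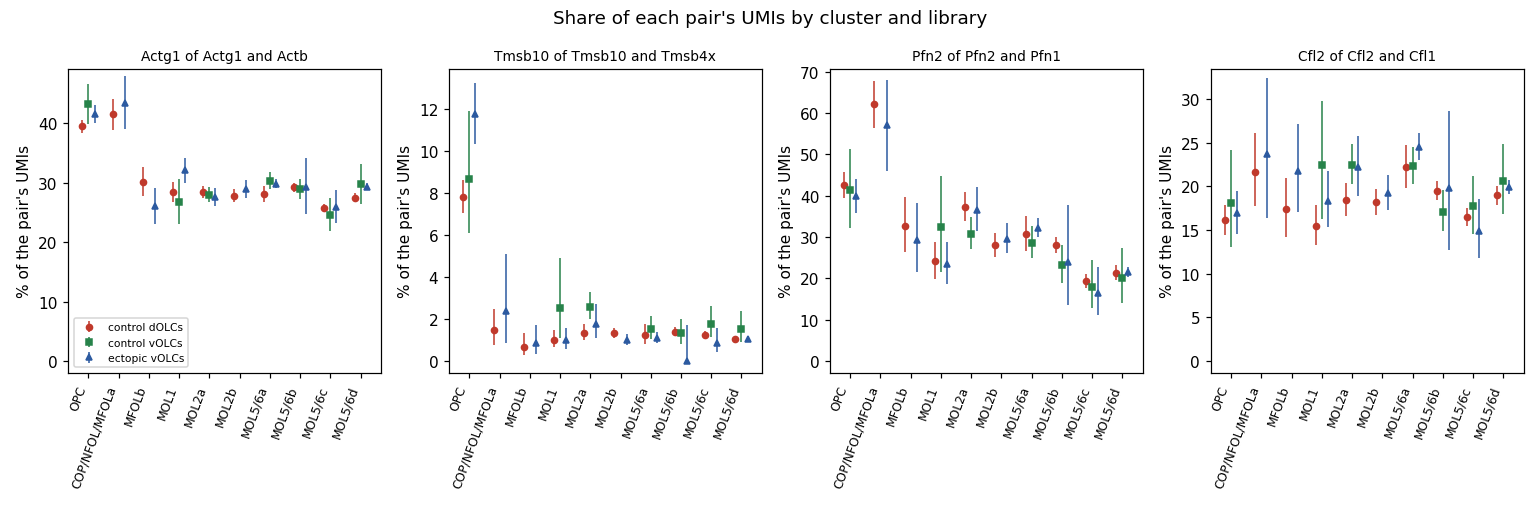
Share of the UMIs of each pair taken by its first-named gene (y axis, percent) in 10 clusters (x axis) and 3 libraries; bars are 95% Clopper-Pearson intervals. The Actg1 share is 39.5% to 43.5% in OPC and COP/NFOL/MFOLa and 24.6% to 32.1% in every later cluster, the Tmsb10 share is highest in OPC, and the Pfn2 share is highest in COP/NFOL/MFOLa.

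The contrast of stage was then read within each library, as the log2 ratio of OPC to MOL5/6 (MOL5/6a to MOL5/6d joined). Lower in OPC in all 3 libraries were Gsn (-1.97 ± 0.53, SD, n = 3), Tmsb4x (-1.12 ± 0.22), Cfl2 (-1.07 ± 0.27), Cfl1 (-0.81 ± 0.35), Pfn1 (-0.72 ± 0.23) and Actb (-0.45 ± 0.23). Higher in all 3 were Tmsb10 (1.89 ± 0.54), Pfn2 (0.43 ± 0.23) and Actg1 (0.36 ± 0.17), and Arpc2 (-0.024 ± 0.28) lay on both sides of 0. Past 1.25-fold in each library, 1 gene was higher and 5 were lower in OPC, against 41% and 19.7% of all 5293 genes that passed the filter (50 or more UMIs over both sums, and detection in 10% or more of the cells of either). With TMM factors, which shifted every gene by -0.77 to -0.53 by library, Actg1 (-0.31) and Pfn2 (-0.24) turned to lower in OPC on average, as they did with size factors (-0.29 and -0.22), and Tmsb10 stayed higher in all 3 libraries (1.23 and 1.24). The counts were then 1 higher and 7 lower of the 10 under both, and the shares of all genes turned to 20.3% higher and 41.5% lower with TMM and to 20.5% and 41.4% with size factors.

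The median of the 10 genes was -0.57 ± 0.23, against 0.32 over all genes that passed the filter. With edgeR's TMM factors it was -1.24 and with DESeq2's size factors -1.22, where the median of all genes was -0.35 and -0.33. Since a fixed shift of every gene leaves pair shares and the order of the 10 genes as they are, those carry the contrast of stage with no scaling. OPC also held RNA of the 9 mature markers, at 10981 CPM in control dOLCs, 6128 CPM in control vOLCs and 5843 CPM in ectopic vOLCs. For each 100 mature marker UMIs, OPC held 3.68, 3.02 and 4.88 UMIs of Gsn in these libraries, and MOL5/6 held 1.95, 1.53 and 1.83. Neuron markers (4 genes) summed to 1090, 1262 and 1183 CPM in OPC of these libraries and to 18.3, 7.88 and 10.4 CPM in MOL5/6. Astrocyte markers (6 genes) summed to 1004, 1084 and 1028 CPM in OPC and to 266, 240 and 225 CPM in MOL5/6. The part of this RNA in the genes higher in OPC was not tested.

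In MOL5/6, the 3 libraries held 3777 control dOLCs, 561 control vOLCs and 1842 ectopic vOLCs. All 10 genes passed the filter. Ratios are given as log2, and an interval beside one is the 95% conditional exact binomial interval, which covers counting error only. The comparisons share libraries, so that they are not independent of each other.

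Against control dOLCs, ectopic vOLCs were higher for 9 of the 10 genes, where 46.6% of all 5218 genes that passed the filter were. Intervals lay above 0 for 8 of the 10, and the share of all genes with such an interval is not given. The median ratio was 0.19, against -0.029 over all genes. The highest ratios were those of Pfn2 (104 CPM in control dOLCs and 133 CPM in ectopic vOLCs; 0.36, 0.26 to 0.47) and Cfl2 (208 and 265 CPM; 0.35, 0.27 to 0.42). Only these 2 were higher by at least 1.25-fold and none was lower, where 7.95% of all genes were higher and 23.3% lower. Actg1, at 859 CPM in control dOLCs and 1069.5 CPM in ectopic vOLCs, was just short of that fold (0.32, 0.28 to 0.35). Tmsb10 had the lowest ratio (-0.0062, -0.20 to 0.19).

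This count depended on the scaling. TMM factors shifted every gene by 0.15 and size factors by 0.16, after which 6 of the 10 genes were higher by 1.25-fold, and the shares of all genes that were higher and lower turned from 7.95% and 23.3% to 22.8% and 16.0% with TMM and to 24.9% and 15.5% with size factors. Transcript length moved with the ratios as well: across 5070 genes with a length, Spearman's rho of length with ratio was -0.55, a description over genes of the same 2 libraries. Set against genes of like length, the median of the 10 was 0.072 and 1 of them was higher by 1.25-fold.

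Against control vOLCs, the same ectopic library was higher for all 10 genes, where 47.7% of all 5496 genes were, with a median of 0.26 against -0.019. Tmsb4x had the largest ratio, with 2186 CPM in control vOLCs and 3343 CPM in ectopic vOLCs (0.61, 0.57 to 0.65), beside 2924 CPM in control dOLCs. The 4 genes higher by 1.25-fold were Tmsb4x, Pfn1 (0.38, 0.27 to 0.48), Pfn2 (0.37, 0.19 to 0.55) and Actg1 (0.34, 0.28 to 0.40); none was lower. After thinning 2 of the 10 were higher by that fold and Tmsb10 was lower (-0.54). Against genes of like length only Tmsb4x (0.40) stayed past the fold. Over all genes 10.6% were higher and 25.3% lower, which became 19.2% and 19.7% with TMM factors (a shift of 0.10) and 20.9% and 19.0% with size factors (0.11). Actb was at 2050.4 CPM in control vOLCs and 2560.1 CPM in ectopic vOLCs (0.32, 0.28 to 0.36), just short of the fold.

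Between the controls, which come from the same mice, the median was -0.067 and that of all 5195 genes -0.031. Of the 10 genes, 0 were higher and 1, Tmsb4x (-0.42, -0.46 to -0.38), was lower by 1.25-fold, where 8.49% and 9.43% of all genes were. Cfl2 (0.19, 0.064 to 0.30) and Cfl1 (0.061, 0.0014 to 0.12) were the genes with an interval above 0. As a mean over the 4 subclusters this Tmsb4x ratio was -0.026, and the 1 gene lower by the fold was then Gsn (-0.34).

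**Figure D3:**
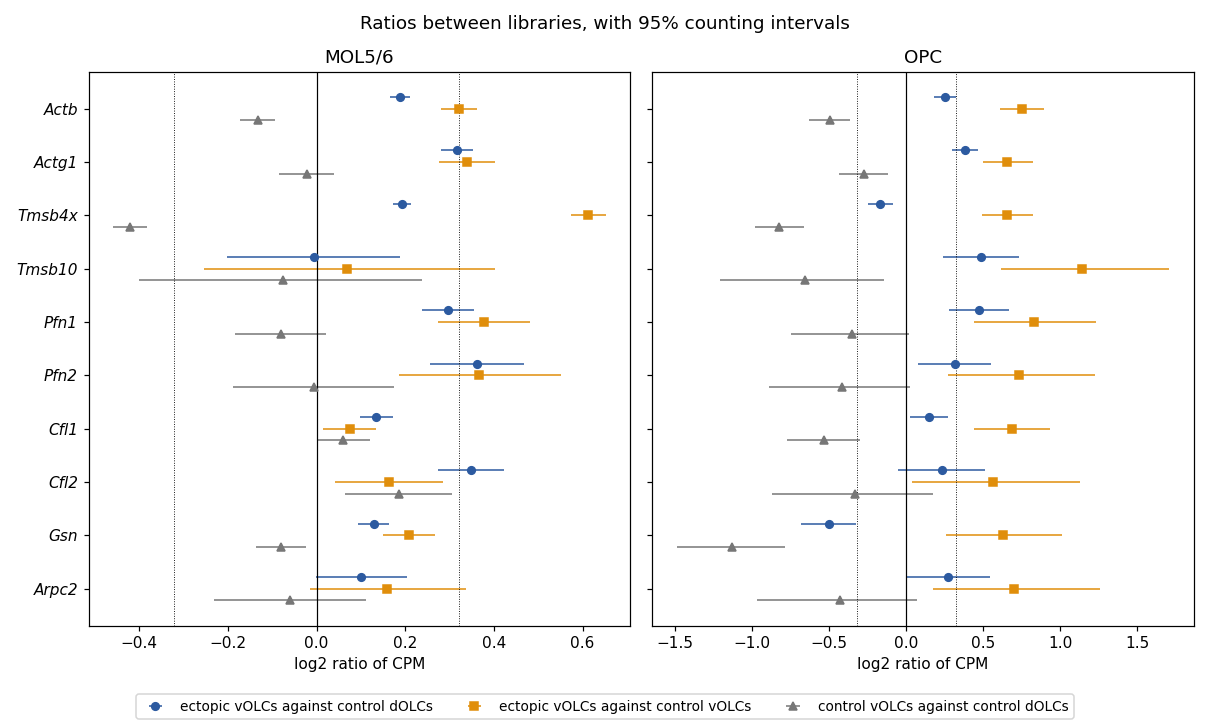
Log2 ratio of CPM (x axis) for each gene (y axis) in MOL5/6 (left) and OPC (right), for 3 comparisons marked by colour and shape; bars are 95% conditional exact binomial intervals for counting error only, and dotted lines mark 1.25-fold. In MOL5/6 most ratios of ectopic vOLCs to either control lie between 0 and 0.61; in OPC all 10 ratios to control vOLCs lie above the right dotted line, and those of Tmsb4x and Gsn to control dOLCs lie below 0.

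The makeup of MOL5/6 differed between libraries, and it moved with Tmsb4x. MOL5/6c and MOL5/6d together were 15.7% of MOL5/6 cells in control vOLCs, 39.6% in control dOLCs and 48.9% in ectopic vOLCs, which is the order of the Tmsb4x levels. Within subclusters, the ratio of ectopic vOLCs to control vOLCs for Tmsb4x was -0.22 (-0.29 to -0.15) in MOL5/6a, -0.15 (-0.36 to 0.059) in MOL5/6b, 0.057 (-0.055 to 0.17) in MOL5/6c and 0.089 (0.0041 to 0.17) in MOL5/6d. All 4 lay below the 0.61 of the joined cells, and their mean was -0.055. Against control dOLCs, where the joined value was 0.19, the ratios were -0.22 (-0.29 to -0.15), -0.30 (-0.50 to -0.10), 0.048 (-0.037 to 0.13) and 0.14 (0.11 to 0.17), with a mean of -0.082. The subclusters were built from the expression of the same cells and paired here by their Tmsb4x levels. The part of the makeup in the joined ratios was not tested.

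Other genes differed in how they held within subclusters. Gsn, with a joined ratio to control vOLCs of 0.21 (0.15 to 0.27), stood at 0.60 (0.52 to 0.68) in MOL5/6a and 0.54 (0.32 to 0.78) in MOL5/6d, beside 0.094 (-0.15 to 0.33) for MOL5/6b and 0.32 (0.070 to 0.56) for MOL5/6c. To control dOLCs it was at 0.26 (0.18 to 0.33) in MOL5/6a, and MOL5/6b had 0.038 (-0.19 to 0.26), MOL5/6c -0.068 (-0.25 to 0.11) and MOL5/6d -0.023 (-0.088 to 0.041). Cfl1, joined at 0.074 (0.014 to 0.14) to control vOLCs, was at 0.072 (-0.088 to 0.24) in MOL5/6d, -0.047 (-0.25 to 0.15) in MOL5/6c, and for MOL5/6b at -0.53 (-0.87 to -0.21), beside -0.58 (-0.68 to -0.47) in MOL5/6a, where it was 655 CPM in control dOLCs, 883 CPM in control vOLCs and 592 CPM in ectopic vOLCs. Actg1 had ratios to control dOLCs and control vOLCs of 0.22 and 0.26 in MOL5/6a, -0.020 and -0.017 in MOL5/6b, -0.065 and 0.26 in MOL5/6c, and 0.13 and 0.36 in MOL5/6d. Their means were 0.066 and 0.22, beside 0.32 and 0.34 joined. Actb was level with control dOLCs in MOL5/6d (2526 CPM in both; interval -0.038 to 0.038).

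Averaged over the 4 subclusters, the median ratio of the 10 genes was 0.0030 against control dOLCs and 0.029 against control vOLCs. Past 1.25-fold, 0 of the 10 were then higher or lower against control dOLCs, and 1 was higher (Gsn, 0.39) and 1 lower (Tmsb10, -0.71) against control vOLCs. The share of all genes past the fold is not given for this mean, so that these counts have no background beside them. The Tmsb10 means leave out MOL5/6b, where ectopic vOLCs had 0 UMIs. Ectopic vOLCs had only 42 and 63 cells in MOL5/6b and MOL5/6c, and control vOLCs 53 and 35 in MOL5/6c and MOL5/6d.

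**Figure D4:**
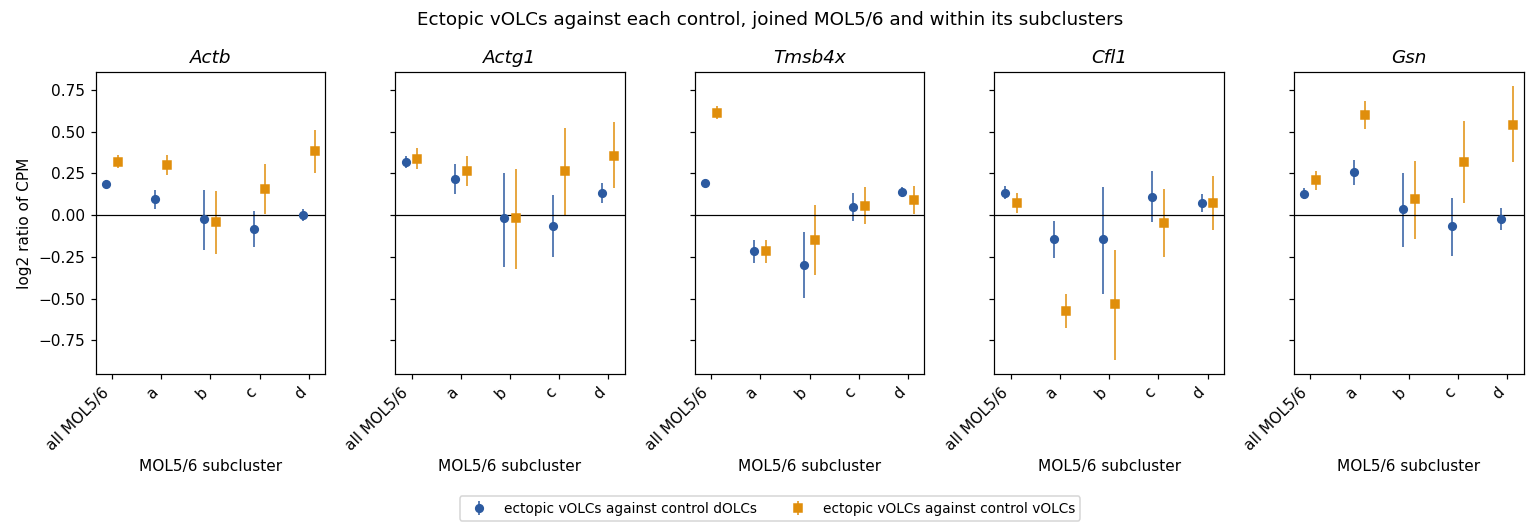
Log2 ratio of ectopic vOLCs to each control (y axis; colour and shape) for 5 genes, in joined MOL5/6 and in its subclusters a to d (x axis); bars are 95% conditional exact binomial intervals for counting error only. For Tmsb4x the joined ratio of 0.61 to control vOLCs lies above all 4 subcluster ratios, whereas for Actg1 the ratios in a and d are above 0 against both controls.

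In OPC, 853 control dOLCs, 121 control vOLCs and 330 ectopic vOLCs were summed, and all 10 genes again passed the filter. Against control dOLCs, 8 genes were higher in ectopic vOLCs and 2 lower, where 60.5% of all 6110 genes were higher, with a median of 0.26 against 0.078. Tmsb10 (0.48, 0.24 to 0.73), Pfn1 (210.2 CPM in control dOLCs and 292 CPM in ectopic vOLCs; 0.47, 0.28 to 0.67) and Actg1 (1154 and 1501 CPM; 0.38, 0.29 to 0.46) were the 3 genes higher by 1.25-fold, where 20.7% of all genes were. Gsn (-0.50, -0.68 to -0.33) was the 1 gene lower by that fold, where 13.5% were, and Tmsb4x was also below 0 (-0.17, -0.25 to -0.087).

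The mature marker RNA in OPC moved with both of the lower genes: it was 10981 CPM in control dOLCs and 5843 CPM in ectopic vOLCs, and its part in the Gsn and Tmsb4x ratios was not tested. Set against genes of like length, 0 of the 10 genes were higher and 2, Gsn (-0.67) and Tmsb4x (-0.40), lower by 1.25-fold, and the median was 0.11, while 5 genes were higher and 1 lower after thinning. Shares of all genes are not given for either alternative, so that these counts have no background beside them. Ratio and length had a rho of -0.36 across 5933 genes.

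Control vOLCs held the lowest OPC level of all 10 genes. Against them, ectopic vOLCs were higher by at least 1.25-fold for all 10, from Cfl2 (0.56, 0.035 to 1.13) to Tmsb10 (1.14, 0.61 to 1.70), where 30.6% of all 5721 genes were higher and 23.9% lower. Actb stood at 0.75 (0.61 to 0.89), Actg1 at 0.66 (0.49 to 0.82), Tmsb4x at 0.65 (0.49 to 0.82) and Gsn at 0.63 (0.26 to 1.01). The median was 0.69 against 0.036 over all genes. After thinning each cell to 1000 UMIs, 8 of the 10 were past the fold and Arpc2 was at -0.10, and against genes of like length 8 were past it.

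Between the controls, 9 of the 10 genes were lower in control vOLCs by that fold and 0 higher, where 23.8% of all 5863 genes were lower and 26.1% higher, and the median was -0.46. The intervals of 6 lay below 0, and those of Pfn1, Pfn2, Cfl2 and Arpc2 included 0. Gsn had the largest distance (-1.13, -1.49 to -0.78), followed by Tmsb4x (-0.82, -0.98 to -0.67), and Actg1 (-0.28, -0.44 to -0.12) was the gene short of the fold. Mature marker RNA in OPC was 10981 CPM in control dOLCs and 6128 CPM here, and its part in these ratios was not tested. Both comparisons use the same 121 cells, whose sum holds 34 UMIs of Tmsb10 and 36 each of Cfl2 and Arpc2, so that these counts of 10 and 9 are 1 observation of 1 library and not 2.

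Several values of this library stood apart with the actin genes. Ribosomal protein genes took 2.58% of the OPC UMIs of control vOLCs, 3.90% in control dOLCs and 4.57% in ectopic vOLCs, and immediate early and heat shock genes, which respond to cell handling, summed to 1479, 2101 and 2140.3 CPM. UMIs were found for 14, 13 and 12 of the 14 genes of that second list, in the same order of libraries. Of the OPC of control vOLCs, 8.26% held at least 2 UMIs of microglial, endothelial or mural markers, against 3.28% and 3.94%. The shortest of 20 length bins had a median ratio of control vOLCs to control dOLCs of -0.41 and the longest 0.13. Without the cells with other markers the median of the 10 was -0.48, and against genes of like length it was -0.41 with 7 genes lower; thinned to 1000 UMIs it was -0.28 with 5 lower.

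A wider list of 132 actin pathway genes, 129 of them in the table, was described by the same rule. In MOL5/6, against control dOLCs, 67 passed the filter, of which 4 (5.97%) were higher and 17 (25.4%) lower by 1.25-fold, beside the 7.95% and 23.3% of all genes. Against control vOLCs, 3 (4.29%) were higher and 20 (28.6%) lower of 70, beside 10.6% and 25.3% of all genes.

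Past the fold in the same direction against both controls in MOL5/6 were 17 of the 67 genes that passed both filters, 15 lower (22.4%) and 2 higher (2.99%), beside 16.3% and 3.05% of all 5211 genes. Both comparisons use the same ectopic library, so that the counts are not independent. With TMM factors 11 were lower and 4 higher (16.4% and 5.97%, beside 11.3% and 10.1% of all genes), and with size factors 11 and 5 (16.4% and 7.46%, beside 10.8% and 11.6%). The 10 with the largest ratio to control dOLCs were all lower. They were Myh14 (a non-muscle myosin; -1.10 to control dOLCs and -0.79 to control vOLCs), the formins Inf2 (-0.94 and -0.59), Fmnl2 (-0.83 and -0.60) and Daam2 (-0.70 and -0.33), the cofilin phosphatase Ssh2 (-0.91 and -1.06), Gmfb (-0.89 and -0.63), the WAVE complex genes Nckap1 (-0.88 and -0.59) and Abi2 (-0.73 and -0.52), Wipf2 (-0.74 and -0.58) and the kinase Rock2 (-0.71 and -0.67). The 2 higher genes, Capza2 (0.36 and 0.36), a subunit of the capping protein, and Tmod1 (0.35 and 0.51), which caps pointed ends, are named after their values were seen. None of the intervals of these named genes included 0, the nearest being that of Daam2 against control vOLCs (-0.54 to -0.11).

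These 17 transcripts ran from 2537 to 9178 bases. Set against genes of like length, an alternative added after the data were seen, 5 of the 17 stayed past the fold against both controls. Of the genes named above, only Myh14, Inf2, Gmfb and Tmod1 were among them. The share of all genes that stay is not given, so that this count has no background beside it.

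In OPC, against control dOLCs, 74 genes of the wider list passed the filter, of which 15 (20.3%) were higher and 13 (17.6%) lower, beside 20.7% and 13.5% of all genes. Against control vOLCs 32 (46.4%) were higher and 10 (14.5%) lower of 69, beside 30.6% and 23.9%. Past the fold against both controls, which are set against the same ectopic library, were 16 of 68 genes, 14 higher (20.6%) and 2 lower (2.94%), beside 13.1% and 6.88% of all 5667 genes. The 10 with the largest ratio to control dOLCs were Vasp, which protects growing ends (1.16 to control dOLCs and 1.42 to control vOLCs), Coro1b (0.69 and 0.62), Wasl, an Arp2/3 activator (0.63 and 0.75), the monomer-binding gene Cap1 (0.63 and 0.48), the tropomyosins Tpm1 (0.59 and 0.80) and Tpm3 (0.54 and 0.93), the bundling gene Pls3 (0.49 and 1.20), Capza2 (0.44 and 0.42) and Evl (0.44 and 0.34), all higher, and Cyfip1 (-0.48 and -0.68), lower. The other lower gene, named after its values were seen, was Abi2 (-0.33 and -0.33). Intervals included 0 against both controls for Evl (-0.079 to 0.95 and -0.53 to 1.30) and Abi2, against control vOLCs for Coro1b (-0.20 to 1.53), Cap1 (-0.32 to 1.37) and Capza2 (-0.023 to 0.89), and against control dOLCs for Pls3 (-0.020 to 0.99). Vasp rests on 48, 6 and 49 UMIs in control dOLCs, control vOLCs and ectopic vOLCs, and against genes of like length 10 of the 16 stayed past the fold, where Myl12b had no length and could not be checked. A share of all genes is not given for this correction either.

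Likeness of profile was measured as Pearson's r of log2(CPM + 1) over the 27 sums, among 5742 genes with a mean of at least 20 CPM. The sums share libraries and depth and were clustered on these data, so that r is a description with no p. Among the 10 genes, Tmsb4x with Cfl1 (r = 0.94), Pfn1 with Cfl1 (0.94), Tmsb4x with Pfn1 (0.92) and Cfl1 with Cfl2 (0.85) were the closest, Actg1 with Pfn2 reached 0.81, and Actb with Actg1 only 0.21. The nearest of all genes to Tmsb4x were Rps3 (0.95), Atp5h (0.95) and Gabarap (0.94), to Pfn1 Rps3 (0.95), Hsbp1 (0.94) and Cfl1, and to Cfl1 Eif1 (0.95), Tmsb4x and Pfn1. Rps3 encodes a ribosomal protein.

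Nearest to Gsn were Stxbp3 (0.94), Mag (0.93), which encodes a myelin-associated glycoprotein, and Tspan17 (0.92). Cfl2 was nearest to Dstn (0.95), which encodes destrin, another member of the cofilin family, then Aldoa (0.94) and Paip2 (0.92). The nearest genes to Actb were Prdx1 (0.88), Capns1 (0.84) and Cyp2j12 (0.83), and to Actg1 Tubb4b (0.83), a tubulin gene, Scamp3 (0.81) and Pfn2. For Tmsb10 they were Myef2 (0.89), Rftn2 (0.89) and Sf3b4 (0.88), and for Arpc2 Pole4 (0.88), Mrpl27 (0.84) and Ctnnbip1 (0.82).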

How the data were processed

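The authors deposited raw UMI counts per gene and cell for 3 libraries, without normalization, and an annotation giving for each kept cell its library and cluster and its percent of mitochondrial counts. The submitters' processing notes name mm10, Cell Ranger 2.1.1, Seurat 3 and Seurat 4.0, while the text of the methods gives another version of the platform pipeline. The authors kept cells with over 200 and under 3000 genes and at most 15% mitochondrial counts; applied here to 10081 barcodes, this left the 9291 annotated cells. They clustered on 30 principal components at a resolution of 0.6. The labels name the tissue as neocortex and as motor and cingulate cortex. Normalization by the authors (sctransform) is not in the counts used here. The 4 P0 samples were not analysed here.

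Counts were summed per library and cluster and scaled to CPM; MOL5/6 joined MOL5/6a to MOL5/6d. Levels carry exact Poisson, shares Clopper-Pearson and ratios conditional exact binomial 95% intervals, all for counting error only; a count of 0 was read as up to 3 counts. Genes with a ratio needed 50 or more UMIs over both sums and detection in 10% or more of the cells of either. No doublet was called or removed. The ratio and its interval were tested on simulated data. The 10 genes and the lists were chosen with earlier results of these data known. Named besides were wider-list genes past 1.25-fold against both controls in the same direction (at most 10 per cell type) and, for each of the 10 genes, the 3 with the highest correlation, except for Pfn2, whose list is not reported here. Length correction and rescaling of the wider list, and rescaling of single genes between OPC and MOL5/6, were added after seeing the data. Other lists gave, in OPC and MOL5/6, 225 to 1084 CPM for astrocyte, 7.88 to 1262 for neuron, 2.27 to 27.9 for endothelial and mural, 4.57 to 23.6 for red blood cell, 2.53 to 13.7 for cycling and 78.7 to 1548 for committed or newly formed markers, and 812 to 3444 for sex-linked genes.

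Alternatives were TMM and size factors, a total without mitochondrial (13) and ribosomal protein (86) genes, no filter, a mean over cells, thinning to 1000 UMIs, leaving out cells with other markers, a correction for transcript length in 20 bins, the mean over subclusters and leaving out each library. Gene models were GENCODE on GRCm38, which held 95.0% of the symbols. Scaling factors came from edgeR 4.0.16 and DESeq2 1.42.0 in R 4.3.3, sums and intervals from scipy 1.17.1, pandas 2.3.3 and numpy 2.4.6 in Python 3.11.15, figures from matplotlib 3.10.9, and BLAST 2.17.0 was used for look-alike transcripts (at least 95% identity over 200 bases).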

Additional observations from a re-analysis of the deposited data

Results flagged for a closer look

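For 3 genes the ratio of 2 libraries lay on opposite sides of 0 in MOL5/6 and OPC, with each interval clear of 0. Tmsb4x in ectopic vOLCs against control dOLCs was at a log2 ratio of 0.19 in MOL5/6 and -0.17 in OPC, but the mean over the MOL5/6 subclusters was -0.082, on the side of OPC. Gsn in the same comparison was at 0.13 in MOL5/6 and -0.50 in OPC. Of the MOL5/6 subclusters, only MOL5/6a (0.26) had a Gsn interval clear of 0. For each 100 mature marker UMIs, OPC held 3.68 UMIs of Gsn in control dOLCs and 4.88 in ectopic vOLCs. The part of mature marker RNA in the Gsn ratio in OPC was not tested. Cfl1 in control vOLCs against control dOLCs was at 0.061 in MOL5/6, where the mean over the subclusters was 0.24, and -0.53 in OPC. With 1 library per condition, the difference between the cell types was not tested.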

How the results depend on the processing

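Of 64 recomputed summaries, 53 moved by less than their spread and 11 by more; none turned its sign. In MOL5/6 the log2 median for ectopic vOLCs over control dOLCs (0.19) was 0.35 with size factors, 0.072 against genes of like length and 0.0030 as the mean over subclusters, and that to control vOLCs (0.26) was 0.38 with size factors and 0.029 over subclusters. In OPC the median to control vOLCs (0.69) was 0.60 as a mean over cells, 0.62 after thinning and 0.49 against genes of like length, and between the controls (-0.46) it was -0.28 after thinning. OPC against MOL5/6 (-0.57) was -1.24 with TMM and -1.22 with size factors, and -0.66 to -0.44 on leaving out each library in turn. Genes higher by 1.25-fold in MOL5/6 against control dOLCs numbered 2, or 6 with TMM or size factors and 0 over subclusters. They numbered 3 as a mean over cells or after thinning and 1 against genes of like length. Against control vOLCs they numbered 4, or 6 with size factors, 2 after thinning (with Tmsb10 lower) and 1 against genes of like length or over subclusters. In OPC against control dOLCs 3 were higher, or 5 after thinning and 0 against genes of like length, and against control vOLCs 10, or 8 under either. Between the controls in OPC 9 were lower, or 6 as a mean over cells and 5 after thinning. Shares of all genes past the fold are given only for the main setting or with TMM and size factors. Counts of the 10 under the other alternatives therefore have no background here.

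Past the fold, 8 single values turned: Tmsb4x to control vOLCs in MOL5/6 over subclusters (-0.055), Arpc2 to control vOLCs in OPC after thinning (-0.10), and Pfn1 between the controls in OPC after thinning (0.045) and against genes of like length (0.062). In OPC against MOL5/6, a scaling check added after seeing the data, Actg1 turned to -0.31 with TMM and -0.29 with size factors and Pfn2 to -0.24 and -0.22. Of 594 recomputed values of single genes, 445 stayed within their interval or SD and 141 left it with no turn of a called value. Beyond the arithmetic of each alternative, the cause was not tested. Arpc2, Cfl2 and Tmsb10 in OPC of control vOLCs rest on 34 to 36 UMIs. No paired analysis was possible because no condition has more than 1 library and the result comes from no test.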
